A study of Mus musculus with 18 samples.

Results

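Cells sorted as motor neurons (MNs) came from mouse spinal cord of embryos (labelled E12.5, here e12) and pups of postnatal day 8 (p8). The term MNs below means these sorted cells. In them, 10 RNA-binding factors that shape neuronal mRNA were followed. They were the neuronal Hu proteins Elavl2, Elavl3 and Elavl4, the KH-domain factors Nova1 and Nova2, the Fox-1 proteins Rbfox1 and Rbfox2, the polypyrimidine tract binding proteins Ptbp1 and Ptbp2, and Srrm4. These 10 genes were chosen by name from the 27179 genes of the stage and region tables, and all 10 had a row there. In the mutant table, which lists 35729 RefSeq transcripts, they had 30 transcripts, and each gene was taken from the transcript with the highest mean.

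Neurons splice many exons that other tissues skip, and a small set of factors drives this program. Ptbp1 represses neuronal exons in progenitors and in non-neural cells. Its paralog Ptbp2 takes its place as neurons are born, and Srrm4 (nSR100) then switches on neuronal exons and microexons, including an exon of Ptbp2. Nova, Rbfox and Hu proteins bind short motifs in introns or untranslated regions and control which exons are kept, and Hu proteins also stabilise mRNA. Several of these proteins mark neurons by immunostaining, among them Rbfox3, which is NeuN.

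The series holds 18 samples. At e12 they were 6 control brachial samples of wildtype genotype and 3 brachial samples of Hoxc8 MNΔ early mice, in which Olig2-Cre, a driver of MN progenitors, deletes a floxed Hoxc8 gene. At p8 there were 3 brachial, 3 thoracic and 3 lumbar samples, all wildtype. Embryonic cells were sorted by the Mnx1-GFP reporter, and postnatal cells by the tdTomato of Ai9 mice, made in every cell in which Chat-IRES-Cre has acted. Wildtype samples were pools of several spinal cords, and the brachial segments taken for the mutants began further down the cord than those taken for the stages. The methods give Hoxc8 fl/fl as the control of the mutants, whereas the labels call every control wildtype, and the methods name fewer e12 replicates than the 6 that are labelled. The reporter, the number of cords in a pool and the stage changed together, so that their parts in a difference between stages cannot be told apart.

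The values are the authors' DESeq2 results, with a mean over samples, a log2 fold change and its standard error for each gene and comparison. The tables used here give no value per sample, so the depth of each sample is unknown, and the spread between replicates enters only through the standard error. Levels are normalised read counts per stage or region, solved from the mean and the fold change. A gene was called at a Benjamini-Hochberg adjusted p under 0.05 over every gene with a p-value.

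The cells were checked against markers before the factors were compared. Of 7 MN genes, 4 were higher at e12 and 0 at p8, led by Mnx1 with 3504 normalised reads at e12 and 5.80 at p8. The e12 cells were sorted by an Mnx1 reporter, so this level is not an independent check. Chat, whose Cre marked the p8 cells, had 202 normalised reads at e12 and 37.8 at p8 and was not called. Of 15 pan-neuronal genes, 10 were higher at e12, and the list made up 1.27% of the summed level of all named genes at e12 and 0.150% at p8. All 12 oligodendrocyte genes were higher at p8, where they made up 43.9% of the summed level against 0.0102% at e12, and Mbp, a protein of myelin, alone reached a level of 1.32e+07. Of the microglial genes, 7 of 8 were higher at p8, as were 6 of 7 endothelial genes and 4 of 7 astrocyte genes. At e12, 6 of 7 interneuron genes were higher, among them Pax2 with 7046 normalised reads at e12 and 0.611 at p8. The interneuron genes made up 0.120% of the summed level at e12. The MN genes made up 0.0486% at e12 and 0.00314% at p8. These markers therefore do not show that motor neurons prevailed among the sorted cells at either stage. A lower level at p8 may therefore come from fewer neurons in the sort or from less RNA of that gene in each neuron. Other kinds of neuron among the e12 cells may also have a part in it, and bulk values cannot tell these apart. For this reason each stage difference was also set against the median log2 fold change of the pan-neuronal genes, which was 3.98, whereas the median over all tested genes was -0.04. The 15 pan-neuronal genes themselves ran from -1.64 to 6.29. Their median was the value of Nsg1, which is among the 3 genes of this list without a p-value. Intervals and calls on this scale took the median as fixed, so they leave out that spread.

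The bases upstream of transcription starts are shown for 4 genes, Srrm4 with the largest stage difference, Elavl3 with the smallest among the 3 neuronal Hu genes, and the pair Ptbp1 and Ptbp2. Start sites were found in RefSeq (GRCm38.p6) for 9 of the 10 genes, as 18 windows of 250 bases, and not for Rbfox2. Each sequence is given on the strand of its gene and ends at the base before the start, and capitals mark the motifs searched on both strands, which were TATAAA (the TATA box), CAGCTG (an E-box), GTTGCC (part of the X-box), CCAAT (the CCAAT box) and GGGCGG (the GC box).
Srrm4, chr5:116591818-116592067, minus strand: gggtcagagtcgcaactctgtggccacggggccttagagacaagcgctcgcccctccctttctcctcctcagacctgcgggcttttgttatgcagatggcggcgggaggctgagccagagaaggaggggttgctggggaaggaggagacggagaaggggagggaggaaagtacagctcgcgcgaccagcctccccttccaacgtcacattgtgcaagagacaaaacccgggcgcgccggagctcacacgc
Elavl3, chr9:22052024-22052273, minus strand: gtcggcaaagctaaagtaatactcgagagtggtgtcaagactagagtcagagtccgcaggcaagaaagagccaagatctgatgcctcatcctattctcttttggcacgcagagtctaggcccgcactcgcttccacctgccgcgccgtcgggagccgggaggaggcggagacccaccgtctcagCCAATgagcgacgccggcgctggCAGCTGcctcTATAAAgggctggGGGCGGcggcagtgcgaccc
Ptbp1, chr10:79854182-79854431, plus strand: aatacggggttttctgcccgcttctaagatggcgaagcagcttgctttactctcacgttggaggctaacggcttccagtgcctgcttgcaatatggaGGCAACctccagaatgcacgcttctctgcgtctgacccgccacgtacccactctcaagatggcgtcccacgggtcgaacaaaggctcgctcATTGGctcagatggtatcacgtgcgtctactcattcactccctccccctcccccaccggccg
Ptbp2, chr3:119783389-119783638, minus strand: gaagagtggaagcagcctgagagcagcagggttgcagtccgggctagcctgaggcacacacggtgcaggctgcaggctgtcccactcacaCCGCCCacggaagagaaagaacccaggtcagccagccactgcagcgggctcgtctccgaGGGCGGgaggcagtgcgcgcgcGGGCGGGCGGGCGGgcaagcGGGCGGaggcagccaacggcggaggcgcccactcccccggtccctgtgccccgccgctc
The window of Elavl3 held 4 of the 5 motifs, and it was the only window among the 18 with TATAAA, which 12.4% of all 32851 RefSeq windows hold. The E-box letters stood in windows of 4 genes, Elavl3, Elavl4, Nova1 and Rbfox1, in 5 of the 18 windows, against 13.0% of all windows. CCAAT was found for Elavl2, Elavl3, Elavl4 and Ptbp1, in 10 windows, and in 33.8% of all windows. The GC box was found for Elavl2, Elavl3, Nova2 and Ptbp2, in 8 windows, and in 32.7% of all windows, and in Ptbp2 3 of its copies overlap. GTTGCC was found for Ptbp1 and Rbfox1, in 2 windows, and in 10.4% of all. For Rbfox1 the bases after the starts were not found in an annotated transcript of the gene, so its windows are less certain. Several windows of Elavl2 and Elavl4 overlap each other and are not independent. The window of Srrm4 held none of these letters. Its GC content was 63.2% with 17 CpG sites, whereas the median over all windows was 52.4% with 6 CpG sites. Ptbp1 and Ptbp2 differed in composition, with a GC content of 57.6% and 72.4% and with 17 and 23 CpG sites.

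Most of the factors were higher in the cells sorted at e12. The stage table gave a p-value for 7 of the 10, and all 7 were higher at e12, whereas 0 were higher at p8. Over all genes tested, 24.8% were called higher at e12 and 23.0% higher at p8. Relative to the pan-neuronal median, 4 of the 7 were called higher at e12 and 2, Elavl3 and Ptbp2, higher at p8, and Elavl4 was not called. On this scale 3.60% of all genes were called higher at e12 and 71.9% higher at p8. The log2 fold changes of the 10 genes ran from 0.19 to 10.46 with a median of 5.50. Nova2, Rbfox2 and Ptbp1 had a fold change and a standard error but no p-value, as did 11.4% of genes with a fold change, and they are given with their 95% intervals alone. Why the p-value is missing is not given in the sources used here. The levels, intervals and ratios of these genes are therefore less certain than those of the other 7.

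**Figure D1:**
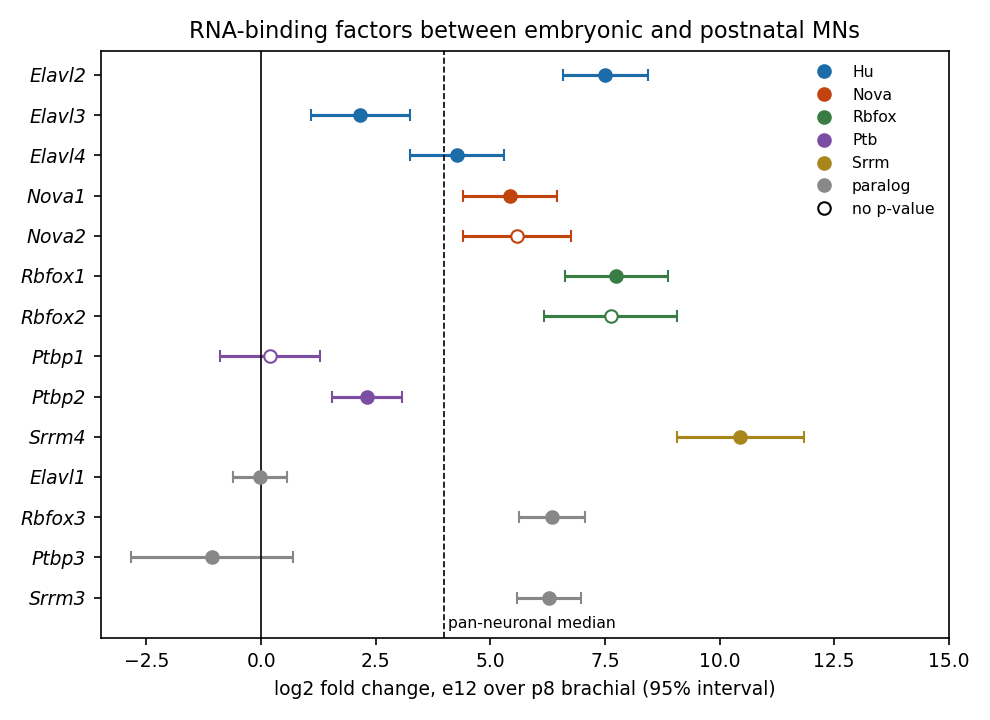
Log2 fold change of e12 over p8 brachial MNs (x axis) for the 10 factors, coloured by family, and 4 paralogs in grey, with 95% intervals. Open circles have no p-value, the solid line marks 0 and the dashed line the pan-neuronal median of 3.98. Srrm4 lies furthest right at 10.46, and Ptbp1 lies at 0.19 with an interval that covers 0.

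All 3 neuronal Hu genes were lower at p8 as deposited, without re-centring on neuronal genes. Elavl2 had 3849 normalised reads at e12 and 21.1 at p8, a log2 fold change of 7.51 (95% interval 6.58 to 8.44, adjusted p = 3.79e-54). Elavl4 (HuD), which stabilises mRNA of growing axons such as that of Gap43, had 6595 normalised reads at e12 and 341 at p8, a log2 fold change of 4.27 (3.24 to 5.31, adjusted p = 7.85e-15). Elavl3 (HuC) had 15247 normalised reads at e12 and 3403 at p8, a log2 fold change of 2.16 (1.09 to 3.24, adjusted p = 2.83e-04). The interval of Elavl2 lay above those of the other two, which touched at 3.24. Per kb of exon, Elavl3 made up 50.2% of the 3 genes at e12 and 86.7% at p8. The share of Elavl4 was 31.4% at e12 and 12.6% at p8, and that of Elavl2 was 18.4% at e12 and 0.778% at p8. Elavl1 (HuR), the family member made in all tissues, had 2422 normalised reads at e12 and 2455 at p8, a log2 fold change of -0.02 (-0.61 to 0.57, adjusted p = 0.975). Per kb, Elavl3 stood at 5.31 times the level of Elavl1 at e12 and at 1.17 times at p8.

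The Nova factors, which bind YCAY motifs and regulate synaptic exons, were both high at e12. Nova1 had 15033 normalised reads at e12 and 349 at p8, a log2 fold change of 5.43 (4.39 to 6.46, adjusted p = 1.92e-23). Nova2 had 7768 at e12 and 162 at p8, a log2 fold change of 5.58 (4.41 to 6.75). The ratio of Nova1 to Nova2 per kb was 2.26 at e12 and 2.52 at p8, so that the pair kept its order. Of the 50-base windows of Nova2 transcripts, 30.8% also occur in the transcript Gm26821, so its reads are less certain than those of Nova1, for which 3.42% are shared.

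The Rbfox factors bind GCAUG. Rbfox1 had 4975 normalised reads at e12 and 23.1 at p8, a log2 fold change of 7.75 (6.62 to 8.88, adjusted p = 2.19e-39). Rbfox2, which is made in many tissues besides neurons, had 16258 normalised reads at e12, the highest level of the 10, and 82.3 at p8, a log2 fold change of 7.63 (6.18 to 9.07). Their intervals overlap almost entirely. Rbfox3 (NeuN) had 2420 normalised reads at e12 and 29.7 at p8, a log2 fold change of 6.35 (5.63 to 7.06, adjusted p = 2.65e-65). Rbfox1 stood at 2.91 times the level of Rbfox3 per kb at e12 and at 1.10 times at p8.

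Among the polypyrimidine tract binding proteins, Ptbp1 had 1242 normalised reads at e12 and 1087 at p8, a log2 fold change of 0.19 with an interval from -0.91 to 1.29. Ptbp2 had 4016 at e12 and 813 at p8, a log2 fold change of 2.30 (1.54 to 3.07, adjusted p = 1.99e-08). Per kb, Ptbp2 stood at 2.27 times the level of Ptbp1 at e12 and at 0.525 times at p8. Their order was thus turned round between the stages, but the ratio was not tested and Ptbp1 had no p-value. The part of oligodendrocytes and other non-neuronal cells in these p8 levels was not tested. Ptbp3 had 877 normalised reads at e12 and 1833 at p8, a log2 fold change of -1.06 (-2.83 to 0.70, adjusted p = 0.363). Of the windows of Ptbp1, 24.2% occur in transcripts of 5 other genes, none of them Ptbp2 or Ptbp3.

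Srrm4 had the largest difference. It had 2875 normalised reads at e12 and 2.05 at p8, a log2 fold change of 10.46 (9.08 to 11.83, adjusted p = 4.13e-48). Its p8 level was near that of single reads, and only 2.82% of expressed genes lay lower per kb at p8, whereas 79.2% did at e12. Srrm3, a paralog that also promotes microexons, had 1639 normalised reads at e12 and 21.02 at p8, a log2 fold change of 6.28 (5.59 to 6.98, adjusted p = 3.19e-67).

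**Figure D2:**
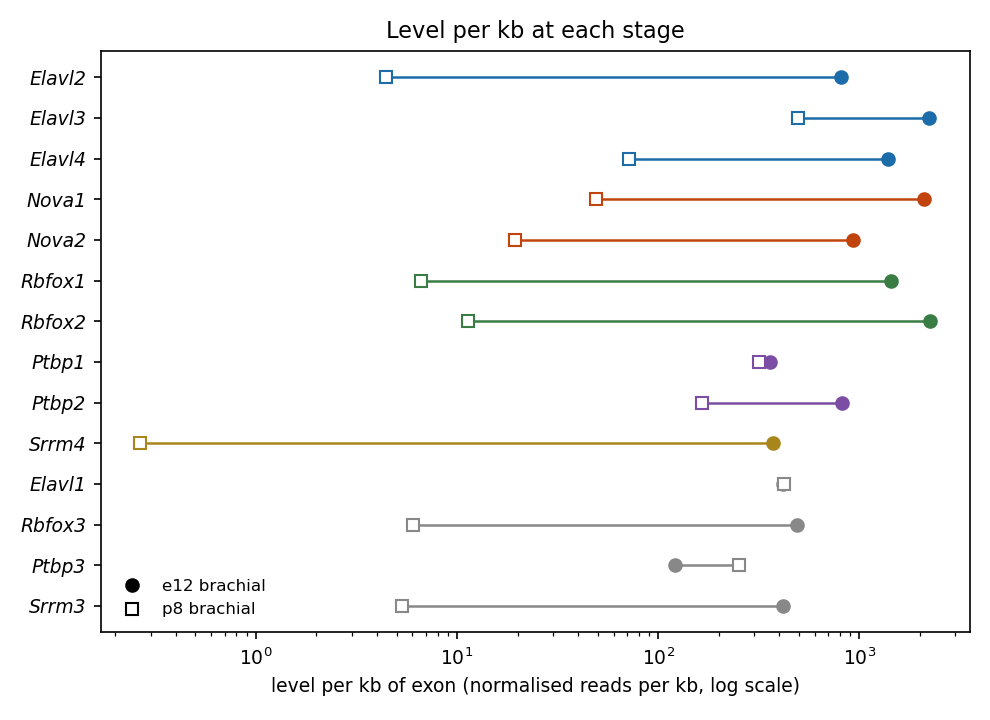
Level per kb of exon (x axis, log scale) of each factor and paralog at e12 (filled circles) and p8 (open squares). At p8, Elavl3 at 494 normalised reads per kb, the paralog Elavl1 at 423 and Ptbp1 at 315 were highest, and Srrm4 was at 0.266.

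Per kb of exon, the order at e12 was Rbfox2 at 2248 normalised reads, Elavl3 at 2213, Nova1 at 2101, Rbfox1 at 1431, Elavl4 at 1382, Nova2 at 928, Ptbp2 at 817, Elavl2 at 809, Srrm4 at 374 and Ptbp1 at 360. At p8 it was Elavl3 at 494, Ptbp1 at 315, Ptbp2 at 166, Elavl4 at 71.5, Nova1 at 48.8, Nova2 at 19.4, Rbfox2 at 11.4, Rbfox1 at 6.64, Elavl2 at 4.44 and Srrm4 at 0.266. The spread of a level over samples is not in the tables, so neighbours in these orders were not tested. Ptbp1 moved from the last place to the second. Members of a family share few reads, since 0 of the 50-base windows of Elavl2, Elavl4, Rbfox1, Rbfox2 or Ptbp2 occur in any other gene.

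Relative to the pan-neuronal median, taken as fixed, the factors fell into 3 groups. The log2 fold changes of Srrm4 (6.47), Rbfox1 (3.77), Elavl2 (3.53) and Nova1 (1.44) were above that median and still called, and those of Rbfox2 (3.64, 2.19 to 5.09) and Nova2 (1.60, 0.43 to 2.77) had intervals above it. Elavl4 stood at 0.29, with an interval from -0.75 to 1.32 that covered the pan-neuronal median. Elavl3 at -1.82 (-2.90 to -0.74) and Ptbp2 at -1.68 (-2.44 to -0.92) were called lower, and Ptbp1 was at -3.79 (-4.89 to -2.69). The direction of Elavl3 and Ptbp2 therefore depended on whether they were compared with all genes or with neuronal genes.

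Other splicing factors were set beside the 10. Of 8 further neuronal factors, 4 were higher at e12 and 1 at p8. Celf3 at 7.57, Celf5 at 10.04 and Celf4 at 4.28 were the most abundant, and Khdrbs3 (2.13) was the other gene higher at e12. Mbnl2, a factor that promotes adult exons, was the gene higher at p8, at -5.23 (adjusted p = 2.63e-29), with 116 normalised reads at e12 and 4345 at p8. Of 11 factors of broad expression, 4 were higher at e12 and 5 at p8, with Qk, a regulator of myelin mRNA, at -3.51 (adjusted p = 1.56e-12) and Khdrbs1 at 1.88. Qk and Mbnl2 were higher at p8, as were the oligodendrocyte genes, and the part of oligodendrocytes in their levels was not tested.

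Of 28 hnRNP genes, 20 were higher at e12 and 1 at p8, with a median log2 fold change of 1.16. Hnrnph1 stood at 2.86, Hnrnpa2b1 at 0.79 and Hnrnpu at 0.17, of which the last was not called (adjusted p = 0.406). Of 15 SR genes, 6 were higher at e12 and 2 at p8, with a median of 0.51, led in level by Srrm2 at 2.19. Of 32 spliceosome genes, 10 were higher at e12 and 4 at p8, with a median of 0.61. Among these, Prpf8 stood at 2.40 and Sf3b1 at 0.58 (adjusted p = 0.376). The medians of these 3 lists were all under that of the 10 factors, 5.50, and above that of all tested genes, -0.04.

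**Figure D3:**
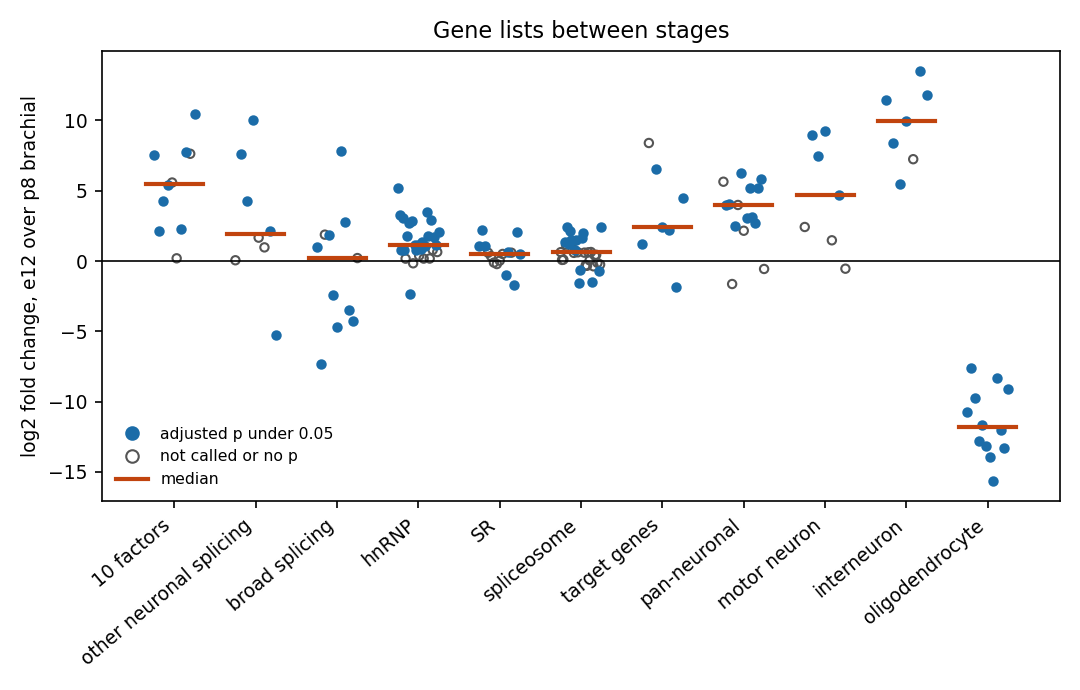
Log2 fold change of e12 over p8 brachial MNs (y axis) for each gene of 11 lists (x axis). Filled points were called at an adjusted p under 0.05, open points were not or have no p-value, and bars are medians. The 10 factors have a median of 5.50, the pan-neuronal genes have 3.98, the hnRNP genes lie at 1.16 and the oligodendrocyte genes at -11.81.

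Genes known from other work to be controlled by these factors were listed too. Of 7, 5 were higher at e12 and 1 at p8. Dlg4 (PSD-95), whose neuronal exon is repressed by Ptbp1 and Ptbp2, had 5463 normalised reads at e12 and 58.6 at p8, a log2 fold change of 6.54. Gap43, an mRNA stabilised by HuD, had 6899 at e12 and 1319 at p8, a log2 fold change of 2.39. Gphn and Dab1, with Nova-regulated exons, stood at 2.21 and 1.19, and Unc13b stood at 4.50. Dcc stood at 8.39 and had no p-value. Rest, the repressor of neuronal genes outside neurons and a target of Srrm4 splicing, was the gene higher at p8, with 181 normalised reads at e12 and 654 at p8, a log2 fold change of -1.85 (adjusted p = 2.54e-04). The part of non-neuronal cells in the level of Rest was not tested. The 95% intervals of Dlg4 (5.95 to 7.14) and Dcc (6.53 to 10.26) lay above the pan-neuronal median of 3.98, taken as fixed. That of Unc13b (3.69 to 5.31) covered it. Those of Gap43 (1.28 to 3.49), Gphn (1.58 to 2.84), Dab1 (0.54 to 1.83) and Rest (-2.76 to -0.94) lay below it. Counts per gene hold no exon usage, so splicing itself was not measured.

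The p8 tables compare the cells sorted from the brachial, thoracic and lumbar cord, each against the other 2 regions. In that order, oligodendrocyte genes made up 43.0%, 42.6% and 46.0% of the summed level. The MN genes made up 0.00304%, 0.00299% and 0.00468%. The part of non-neuronal cells in the region levels was not tested. None of the 10 factors was called in any of the 3 tables, and 0 had an unadjusted p under 0.05 by the DESeq2 Wald test. Over all genes, 0.261% were called for the brachial, 0.0110% for the thoracic and 0.0219% for the lumbar cord, and 6.54%, 1.45% and 2.88% had an unadjusted p under 0.05. All 30 intervals covered 0. The smallest p was that of Elavl2 in the brachial cord (adjusted p = 0.912), with a level of 15.8 normalised reads there, 70.4 in the thoracic and 35.5 in the lumbar cord. Its log2 fold change of -1.87 had an interval from -4.10 to 0.35.

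**Figure D4:**
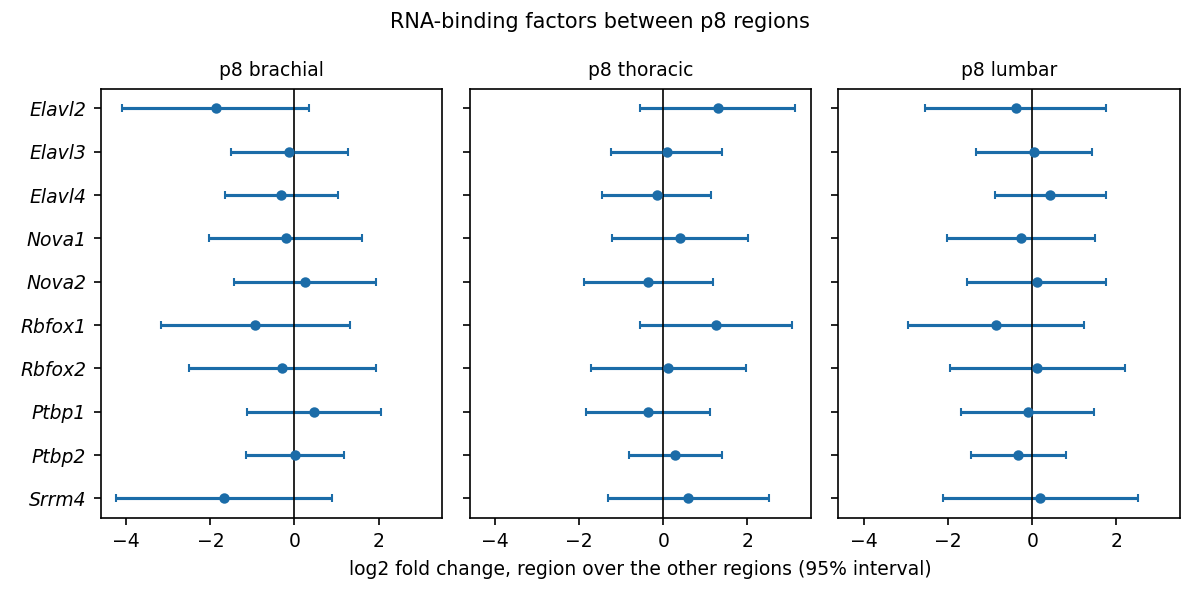
Log2 fold change of each p8 region over the other regions (x axis) for the 10 factors, with 95% intervals, in 3 panels. Every interval crosses 0, and the widest belong to Elavl2, Rbfox1, Rbfox2 and Srrm4.

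The means along the cord are given for each factor, and none of the differences between regions passed the test. Elavl3 had 1821 normalised reads in the brachial, 2001 in the thoracic and 1970 in the lumbar cord. Ptbp2 had 446, 503 and 377, and Ptbp1 had 623, 427 and 484 in the same order. Elavl4 had 186, 200 and 260, and Nova1 had 189, 248 and 183. Nova2 had 82.3, 61.7 and 76.7, Rbfox2 had 40.7, 49.1 and 49.1, and Rbfox1 had 12.4, 32.4 and 12.9. Srrm4 had 2.20 in the brachial, 6.78 in the thoracic and 5.74 in the lumbar cord, at or near single reads. The narrowest interval of the 30, that of Ptbp2 in the thoracic cord, ran from -0.82 to 1.39, so a log2 fold change under 1 could not reach an unadjusted p under 0.05 for any factor. As at p8 in the stage table, Elavl3 was highest and Srrm4 lowest in all 3 regions, here in reads not divided by exon length. Only 3 p8 brachial samples are labelled, so for the brachial cord the 2 results are not independent. The 3 tables use the same samples and are not independent of each other.

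The mutant table compares control MNs with those in which Hoxc8 was deleted early. Hoxc8 itself was checked first, and its transcript NM_010466 had a mean of 19301 normalised reads and a log2 fold change of control over mutant of 0.10 (-0.06 to 0.26). The estimate was higher in control, the direction the labels give, but the difference was not called in this table by the adjusted or the unadjusted p. Whether the counted reads lie in the deleted part is not given in the sources used here. Fold changes of the whole table lay between -0.42 and 0.38, and its standard errors were at most 0.0835, even for genes with almost no reads. The sizes in this table are therefore given as deposited and not read as folds.

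No factor was called between control MNs and those labelled Hoxc8 MNΔ early. Of the 8 with a value, 0 had an adjusted p under 0.05 and 0 an unadjusted p under 0.05 by the DESeq2 Wald test, whereas over all transcripts 0.0357% and 0.871% did. Only 4 factors were measured in depth. Hoxc8 was counted in depth too and was not called, so a factor not called here is not shown to be unchanged. Nova1 had a mean of 22905 normalised reads and a log2 fold change of control over mutant of -0.08 (-0.23 to 0.07). Elavl3 had a mean of 20397 and a log2 fold change of 0.03 (-0.09 to 0.14). Nova2 had a mean of 11382 and a log2 fold change of 0.07 (-0.03 to 0.16). Srrm4 had a mean of 4336 and a log2 fold change of 0.01 (-0.13 to 0.15).

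The other 6 were barely counted, which went with the number of RefSeq transcripts of a gene. Rbfox1 had 144 normalised reads for its highest transcript, Elavl2 had 22.0, Ptbp1 had 21.1 and Elavl4 had 1.11, and every transcript of Ptbp2 and Rbfox2 was at 0. The stage table gave the same genes 1242 to 16258 normalised reads at e12. The 4 measured factors have 1 transcript each in the table, and the 6 others have 2 to 9. Among genes with an e12 level of at least 1000, those with 1 transcript reached a median of 143% of that level, and those with 2 or more a median of 0.656%. For these 6 factors the table therefore holds little or no measure of the mutant. Of the paralogs, Elavl1 (3499 normalised reads, log2 fold change 0.02) and Srrm3 (2299 normalised reads, log2 fold change -0.02) were measured and not called.

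**Figure D5:**
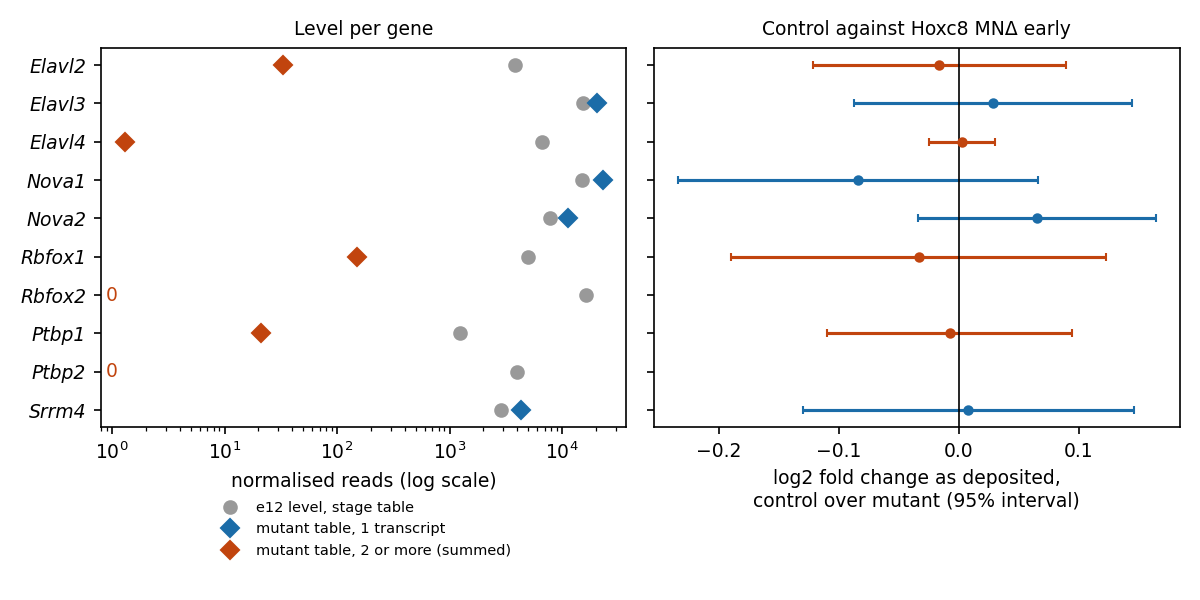
Left, normalised reads (log scale) of each factor at e12 in the stage table (grey circles) and summed over its transcripts in the mutant table (diamonds, blue for 1 transcript and orange for 2 or more, 0 where none was counted). Right, log2 fold change of control over Hoxc8 MNΔ early as deposited, with 95% intervals, all of which cover 0; Elavl3, Nova1, Nova2 and Srrm4 are the measured factors.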

How the data were processed

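RNA of sorted MNs from mouse cord was sequenced in 18 samples, grouped by stage, region and genotype as labelled. The authors aligned unique 50-nucleotide reads to GRCm38 with HISAT, assigned them to genes or transcripts by featureCounts and tested groups in DESeq2 (Galaxy), with versions and annotation not given in the sources used here. Their 5 deposited tables hold these comparisons and were used as such, since the genes were to be described in all of them. The base mean deposited by the authors is a signal, the mean of counts divided by size factors. The log2 fold changes and standard errors were deposited by the authors. The Wald score deposited by the authors is their quotient, and the p-value deposited by the authors is from its 2-sided test. No depth or value per sample is in the tables, and whether replicates within a group were separate litters is not stated, so that p-values measure the spread between these samples.

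P-values were adjusted anew by Benjamini-Hochberg over all rows with one. Intervals used the normal distribution, stage levels weights of 6 and 3 samples, and region levels least squares. Percentiles per kb used genes whose base mean was 10 or more, and summed levels over genes with a symbol. Entrez and RefSeq identifiers were matched to GRCm38.p6 symbols for 93.0% and 99.2% of rows. Exon lengths and shared 50-base windows came from GENCODE M21. All 10 genes and 4 paralogs are named, and of each other list chiefly the 3 genes with the highest base mean. A few more were named after their values were seen. The genes and lists were chosen with earlier results of these data known. Steps were tested on simulated data. Software was matplotlib 3.10.9, scipy 1.17.1, pandas 2.3.3 and numpy 2.4.6 under Python 3.11.15.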

Additional observations from a re-analysis of the deposited data

How the results depend on the processing

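With the pan-neuronal median as the centre of the fold changes, 4 factors in place of 7 were called higher at e12 and 2 in place of 0 higher at p8, since Elavl3 (-1.82) and Ptbp2 (-1.68) reversed and Elavl4 (0.29, adjusted p = 0.608) was no longer called. Under Bonferroni adjustment Elavl3 was no longer called (adjusted p = 1). The authors' own adjusted p-values, adjustment over base means of 10 or more, re-centring on all tested genes, and folds over 2 or 4 left 7 of 7 called. Under every alternative run, 0 factors were called between regions or in the mutant. Weights of 3 and 3 samples multiplied the stage levels of the 10 factors by 1.02 to 1.33, and weights of 6 and 2, chosen after seeing the data, by 0.889 to 0.989, by the same amount at both stages of a gene. Genes higher at p8 moved the other way, Ptbp3 from 877 to 774 normalised reads at e12 under weights of 3 and 3. Region levels from a region's own table were 0.959 to 1.002 times those given. The 3 other member transcripts with counts in the mutant table had an unadjusted p of at least 0.523. No paired analysis was possible because the tables hold no value per sample, and leaving out a replicate was not run for the same reason. Depth per sample is unknown, and Srrm4 at p8 rests on a few reads.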
